A study of Mus musculus with 3 samples.

Results

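Histone-modifying enzymes add or remove methyl and acetyl groups on the tails of histones, and 60 protein-coding mouse genes whose symbols start with Kmt, Setd, Kdm, Ezh, Hdac, Ehmt, or Kat followed by a digit were examined for Tet2-bound RNA. They were picked by symbol out of 21900 protein-coding genes, and the choice was made with earlier results of these data known. The measurements come from ultraviolet cross-linking and immunoprecipitation (CLIP) of endogenous Tet2 with an antibody from cultured mast cells that were grown out of the bone marrow of C57BL/6 mice. The data are 3 biological replicate libraries that form a single group, with no other genotype or treatment arm. Cells had been grown with IL-3 (10 ng/ml) and SCF (5 ng/ml) for 4 to 6 weeks, were FcεRI+ c-Kit+ at a purity above 97.5%, and received 400 and then 200 mJ per square centimetre of ultraviolet light. Which RNAs Tet2 binds is the question the study's design poses. A gene was taken to hold a peak when the midpoint of a deposited peak lay in its annotated span. The peaks were used without a strand, so RNA of the gene and RNA of the opposite strand cannot be told apart. Heights are given in units, the smallest step of the authors' normalized heights in a library. No control library was analysed here.

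Most Kmt, Setd, Ezh and Ehmt genes encode lysine methyltransferases. These write methyl marks that, depending on the residue, accompany active or silent genes, and lysine demethylases (Kdm) erase the marks. Acetyltransferases (Kat) loosen chromatin by acetylating histones, and many deacetylases (Hdac) reverse this as parts of corepressor complexes. Tet2 itself acts on the other main chromatin mark, oxidising 5-methylcytosine, and is often mutated in blood cancers. The symbol rule also takes in Ezhip, which encodes an inhibitor of the Polycomb methyltransferase and not an enzyme. A symbol alone does not show that the product of each other gene acts mainly on histones.

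The 3 libraries held 2377 to 3019 peaks, with a median of 4 units and a tallest peak of 217 to 223 units in each. The lists start at 2 or 3 units, so a gene without a peak may still hold signal below that. Of 12 mast cell markers 7 held a peak, each in all 3 libraries, among them Kit, Cpa3 and Gata2. All 3 Cpa3 peaks and 8 of the Gata2 peaks also lay in another gene span. Fcer1a, Ms4a2, Cma1, Mcpt4 and Mrgprb2 held none. Of 8 markers each, macrophages had 2 with a peak (replicate 2 alone), neutrophils 0, lymphocytes 0 and erythroid or megakaryocytic cells 1 (Itga2b). The mast cell share was 58.3%, the macrophage share 25.0% and the erythroid or megakaryocytic share 12.5%. Over all protein-coding genes the share with any peak was 14.1%. At that share, a list of 8 with no peak cannot show that a cell type was absent.

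Tet2 peaks were found in 24 of the 60 enzyme genes, or 40.0%, where the share with a peak in any library was 14.1% over all protein-coding genes. A peak in all 3 libraries was present in 11 (18.3%, against 3.16% of protein-coding genes), and a peak in 2 or more in 17 (28.3%, against 6.35%). By library, 21 genes held a peak in replicate 1, 15 in replicate 2 and 16 in replicate 3, or 28.9% ± 5.36 (SD, n = 3). The same shares of all protein-coding genes were 8.55%, 8.04% and 7.02%. In each library the share of the enzyme genes was above that of protein-coding genes as a whole. Because the genes were chosen with earlier results of these data known, these shares are a description only. RNA levels were not measured, so Tet2 binding and the abundance of these transcripts in mast cells cannot be told apart, nor can fewer cells with a transcript and less of it per cell.

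The count varied by family. Of 8 Kmt genes 7 held a peak (87.5%) and 6 held one in every library. Both Ehmt genes did so in every library. Of 18 Kdm genes 7 held a peak (38.9%), 2 of them in all 3 libraries. The count was 3 of 10 for Setd (30.0%), 3 of 11 for Hdac (27.3%) and 2 of 8 for Kat (25.0%), with all 3 libraries reached by 1 Hdac gene and by no Setd or Kat gene. None of Ezh1, Ezh2 and Ezhip held a peak in any library. Families this small differ by a few genes, and no test of the difference was made.

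**Figure D1:**
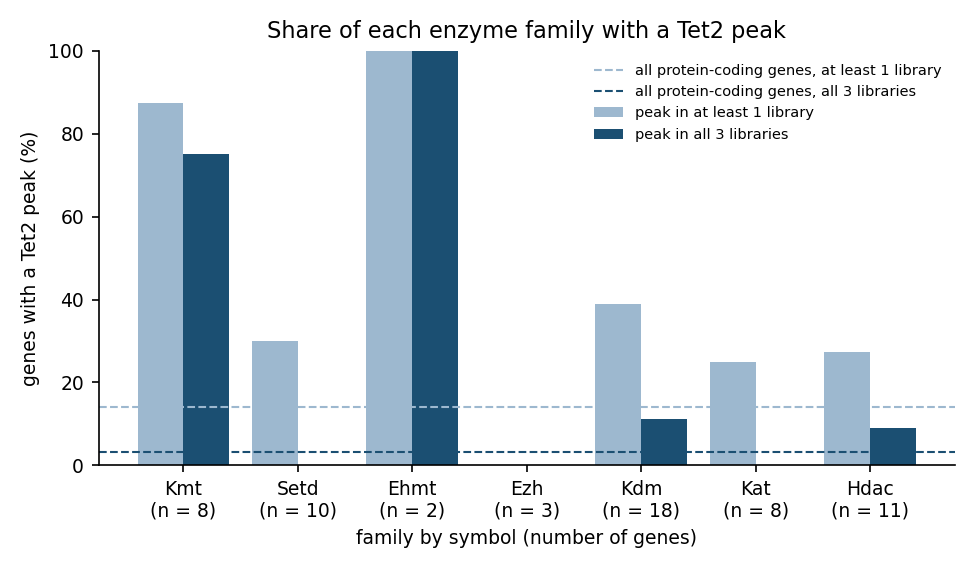
Bars give the percentage of genes in each family with a Tet2 peak in at least 1 library (light) and in all 3 libraries (dark). Dashed lines mark the same shares of all protein-coding genes, 14.1% and 3.16%; Kmt (87.5%) and Ehmt stand highest and Ezh has no bar.

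In total the enzyme genes carried 102 peaks, 39 in replicate 1, 35 in replicate 2 and 28 in replicate 3 (34.0 ± 5.57, SD, n = 3). This was 1.24% ± 0.0576 of the peaks in a library and 0.808% ± 0.0419 of its summed height (SD, n = 3). The peaks were low. Their median was 4 units, as for protein-coding genes, but 1 of 102 (0.98%) reached 10 units, where 8.31% of peaks in protein-coding genes did. At 5 units or more stood 31 of the 102 (30.4%), against 35.0%. Counted by gene, 10 of 60 (16.7%) had a peak of at least 5 units, against 5.65% of protein-coding genes. The share of enzyme genes with a peak was above the background, and the share of tall peaks among theirs was below it.

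Kmt2d carried more peaks than any other enzyme gene. It encodes a large methyltransferase of histone H3 that marks enhancers, and lies on chromosome 15 (98831669 to 98874077, minus strand). It held 8, 13 and 8 peaks in replicates 1, 2 and 3 (9.67 ± 2.89, SD, n = 3), which is 29 of the 102 peaks. Among protein-coding genes, 4 carried more. Because Kmt2d was named in the selection with this number already known, the rank is a description only. Its summed height was 43, 58 and 39 units, or 0.265% ± 0.0480 of a library (SD, n = 3), and its tallest peaks reached 9, 8 and 9 units. All 3 libraries were close in tallest height, and replicate 2 stood apart in peak number.

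When overlapping peaks (1 nt or more) were joined, Kmt2d had 19 loci, and 3 of these were found in all 3 libraries, 4 in 2 libraries and 12 in 1. The tallest shared locus (98864117 to 98864209) stood at 9, 5 and 9 units. A second, with 136 nt between them, lay at 98864346 to 98864366 and stood at 4, 3 and 5 units, and the third lay at 98861603 to 98861676 with 7, 8 and 4 units. The midpoints of these peaks lie 9721 to 12447 nt from the 5′ end of the annotated span, in a stretch of 2764 nt that makes up 6.52% of it. The stretch was chosen after the peaks were seen, to run from the first to the last of these 3 loci. It held 3, 4 and 4 of the gene's peaks and 46.5%, 34.5% and 56.4% of its summed height in replicates 1, 2 and 3. The positions found in every library thus sat close together, and the other 16 loci were spread over the gene. Of these 16, the loci at 98861817 to 98861878 and 98863042 to 98863119 lay inside the stretch. Whether neighbouring loci are separate sites or parts of a single signal was not tested.

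By the way that stretch was set, no locus outside it was found in all 3 libraries. Neighbouring loci at 98855814 to 98855898 and 98856078 to 98856103 were found in replicates 1 and 2, each at 5 and 3 units. A locus at 98843832 to 98843929 was found in replicates 2 and 3, at 5 and 3 units. Near the 5′ end, a locus at 98871458 to 98871507 appeared in replicates 1 and 2 at 3 and 4 units. Its midpoints lay at -282 and -277 nt from the listed transcription start at 98871205, upstream of it and still inside the annotated span. Replicate 2 alone had 3 peaks of 3, 5 and 7 units in the last part of the span, 39818 to 40833 nt from its 5′ end. Replicate 3 alone had a peak of 8 units at 98868825 to 98868919.

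**Figure D2:**
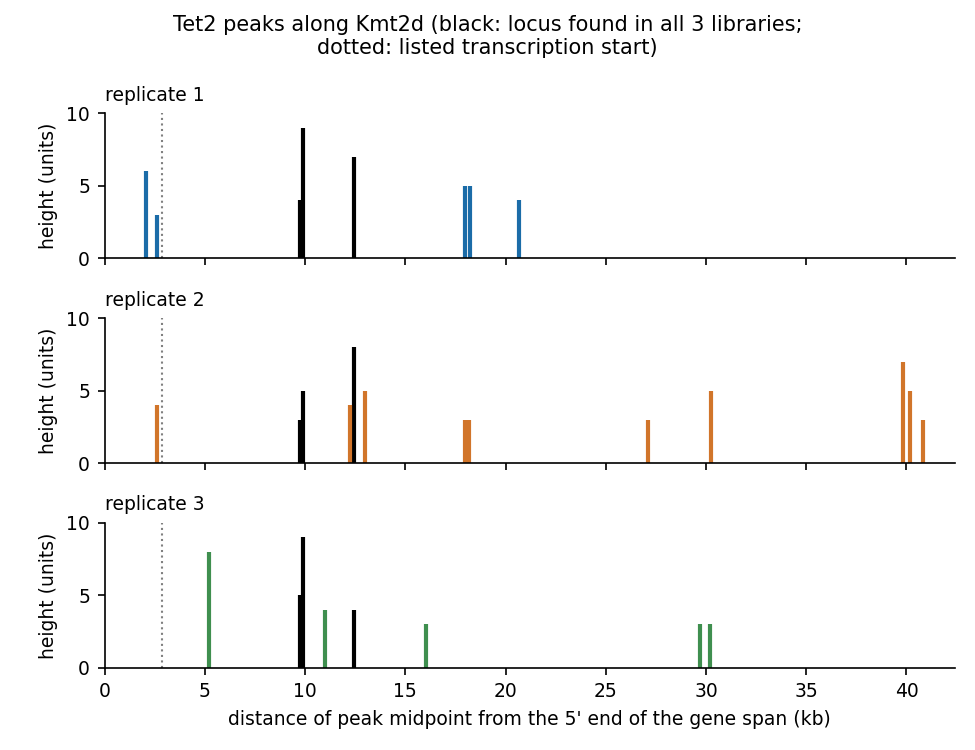
Each line is a Tet2 peak in Kmt2d, drawn at the distance of its midpoint from the 5′ end of the gene span (kb) and with its height in units, for replicates 1, 2 and 3. Black lines are the 3 loci found in all libraries, the dotted line is the listed start, and the cluster of 3 peaks near the 3′ end is seen in replicate 2 alone.

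The other Kmt2 genes encode the catalytic subunits of related complexes that methylate histone H3 at promoters and enhancers, except Kmt2e, which is regarded as having no such activity. All 5 Kmt2 genes held a peak, and together they carried 51 of the 102 peaks. Kmt2a (MLL1), a regulator of Hox genes, held 2, 1 and 1 peaks with tallest heights of 3, 3 and 5 units. A single locus on chromosome 9 (44834583 to 44834667) was present in every library and made up all its signal in replicates 2 and 3. Kmt2b held 4 peaks in replicate 1 and 2 in replicate 3, with tallest heights of 4 and 3 units, and none in replicate 2. Both peaks of replicate 3, on chromosome 7 at 30577374 to 30577395 and 30580491 to 30580511, overlapped peaks of replicate 1.

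Kmt2c, the closest relative of Kmt2d, has a span of 227 kb and yet held 2 peaks in each library. They lay at 25308516 to 25308546 and at 25388070 to 25388091 on chromosome 5, 79.5 kb apart, with 3, 3 and 3 units and 4, 4 and 3 units. Both were narrow, at 20 to 31 nt. All 6 Kmt2c peaks thus lay at loci found in every library, as did 9 of the 29 Kmt2d peaks. Kmt2e also held 2 peaks in each library. Its locus at 23435012 to 23435106 on chromosome 5 stood at 5, 3 and 3 units. The other peak of each library lay at a locus found in that library alone. In replicate 3 it reached 10 units (23434478 to 23434553), the tallest of any enzyme gene. In replicate 1 it lay at 23433126 to 23433197 and also fell in the span of 5031425E22Rik.

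Kmt5b and Kmt5c methylate histone H4, a mark of compact chromatin, and each held a peak in every library, while Kmt5a, which places the first methyl group on that residue, held none. Kmt5b had 2, 1 and 2 peaks with tallest heights of 3, 4 and 4 units. In replicates 2 and 3 a shared locus (3768164 to 3768209, chromosome 19) lay 829 and 824 nt from the 5′ end of the span, and replicate 1 had a peak just downstream that did not overlap it. Kmt5c, with a span of 7.42 kb, held 1 peak per library at 4, 3 and 3 units. Replicates 1 and 3 had it at the same place (4746504 to 4746556, chromosome 7) and replicate 2 had it elsewhere.

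**Figure D3:**
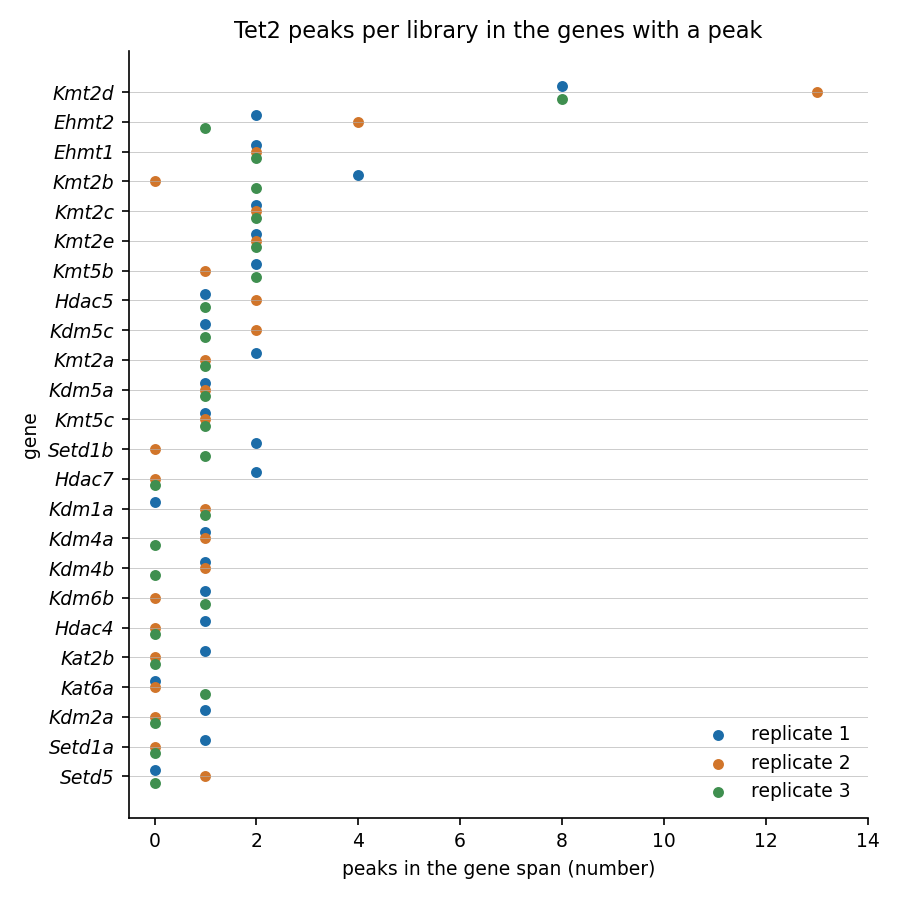
Points give the number of Tet2 peaks (x axis) in each of the 24 enzyme genes with a peak (y axis), by replicate. Kmt2d, at 8, 13 and 8, is separated from the other genes, which hold at most 4 in a library.

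Ehmt1 (GLP) and Ehmt2 (G9a) form a heterodimer that writes the repressive methyl mark of silent euchromatic genes, and both held peaks in every library. Ehmt1, on chromosome 2, held 2 peaks in each. Their edges were the same to the base in all 3 libraries, at 24838844 to 24838868 and 24839530 to 24839593, with 661 nt between them. Both stood at 8 units in replicate 1, both at 6 in replicate 2 and both at 5 in replicate 3. They are counted as 2 here, and whether they are separate sites or parts of 1 signal was not tested. No other locus of the enzyme genes had the same edges in all 3 libraries, and 34 of 557 such loci in protein-coding genes (6.10%) did.

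Ehmt2, on chromosome 17 (34898463 to 34914073), held 2, 4 and 1 peaks with tallest heights of 5, 4 and 4 units. Its locus at 34899807 to 34899879 was found in all 3 libraries at 5, 3 and 4 units, 1362 to 1380 nt from the 5′ end of the span. Replicate 2 had 3 more peaks between that locus and the 5′ end, of 3 or 4 units. The first of them lies 70 to 119 nt before the second of the gene's listed starts (34898970), in the stretch chr17:34898720-34898969 of GRCm38.p6, plus strand. It is shown because it was the only enzyme gene peak that fell in a listed start window. The sequence is from RefSeq, 5′ to 3′ on the strand of the gene, and the capitals mark the peak, which was used without a strand.

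Ehmt2: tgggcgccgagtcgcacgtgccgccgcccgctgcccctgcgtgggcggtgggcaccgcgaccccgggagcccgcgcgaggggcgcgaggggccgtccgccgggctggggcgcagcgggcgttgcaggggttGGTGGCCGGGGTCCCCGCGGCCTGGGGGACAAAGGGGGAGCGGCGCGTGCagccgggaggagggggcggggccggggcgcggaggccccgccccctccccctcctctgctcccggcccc

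In this peak 41 of 50 bases (82.0%) were C or G, and it held 6 CG dinucleotides. Over 32851 listed start windows the same 50 positions had a median of 54.0% C or G and of 1 CG. As many as 3.10% of windows were at least as rich in C and G, and 11.1% held at least 6 CG on the strand as listed. The peak was seen in 1 library at 4 units, so its composition describes a single observation.

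The Setd genes include Setd1a and Setd1b, the catalytic subunits of the complexes that methylate histone H3 at active promoters. Setd1a held 1 peak of 3 units in replicate 1 alone, 445 nt from its start. Setd1b held 2 peaks in replicate 1, the taller at 5 units, none in replicate 2 and 1 of 3 units in replicate 3, none of them at a common locus. Of the other 8 Setd genes, Setd5 held 1 peak of 3 units in replicate 2. Setd2, which marks transcribed gene bodies, the heterochromatin enzymes Setdb1 and Setdb2, and Setd3, Setd4, Setd6 and Setd7 held none.

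A taller signal lay just outside the Setd1a span. A peak at 127777062 on chromosome 7, in no gene span and thus not counted above, stood at 10, 4 and 4 units in replicates 1, 2 and 3. Its midpoint was 304 to 307 nt upstream of the Setd1a start, with the same first base in every library. No other enzyme gene had a peak within 1000 nt outside its span.

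Among the demethylases, only Kdm5a and Kdm5c, which remove methyl groups from histone H3 at promoters, held peaks in all 3 libraries. Kdm5c, on the X chromosome, had a locus at 152233673 to 152233736 of 3, 4 and 7 units, whose midpoints lay 505 to 522 nt from the 5′ end of the span. Replicate 2 had a second peak of 3 units far downstream. The Kdm5a locus (120364112 to 120364253, chromosome 6) stood at 4, 4 and 3 units, but it lies where the spans of Kdm5a and Ccdc77 overlap and cannot be given to either. Kdm5b, and Kdm5d on the Y chromosome, held none.

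Of the other demethylase genes 4 held a peak in 2 libraries, each time at different loci. Kdm1a (LSD1), which acts with the corepressor CoREST, held a peak of 8 units in replicate 2, 680 nt from the 5′ end of its span, and one of 3 units in replicate 3, 15313 nt from it. Kdm4a stood at 3 and 4 units in replicates 1 and 2, Kdm4b at 3 and 3 in the same libraries, and Kdm6b, which erases the Polycomb mark, at 3 and 3 in replicates 1 and 3. The Kdm6b peak of replicate 3 also fell in the span of Gm51903. Kdm2a held 1 peak of 5 units in replicate 1, in a stretch shared with 9430078G10Rik. Kdm1b, Kdm2b, Kdm3a, Kdm3b, Kdm4c, Kdm4d, Kdm6a, Kdm7a and Kdm8 held none.

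Peaks in the deacetylase genes were confined to class IIa, the signal-responsive deacetylases that shuttle between nucleus and cytoplasm, in these libraries. Hdac5 held 1, 2 and 1 peaks with tallest heights of 3, 6 and 3 units, and its 4 peaks lay at 4 different loci. Hdac4 held 1 peak of 4 units and Hdac7 2 peaks of 3 units, both in replicate 1 alone. The fourth class IIa gene, Hdac9, held none although its span is the longest of the 60. The 4 class I genes Hdac1, Hdac2, Hdac3 and Hdac8, the core of the main corepressor complexes, held none, nor did Hdac6, Hdac10 and Hdac11. No Hdac locus was found in more than 1 library.

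The acetyltransferase genes carried 2 peaks in all. Kat2b (PCAF) held 1 peak of 4 units in replicate 1 and Kat6a (MOZ), which is needed for blood stem cells, 1 of 3 units in replicate 3. Kat2a, Kat5, Kat6b, Kat7, Kat8 and Kat14 held none.

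**Figure D4:**
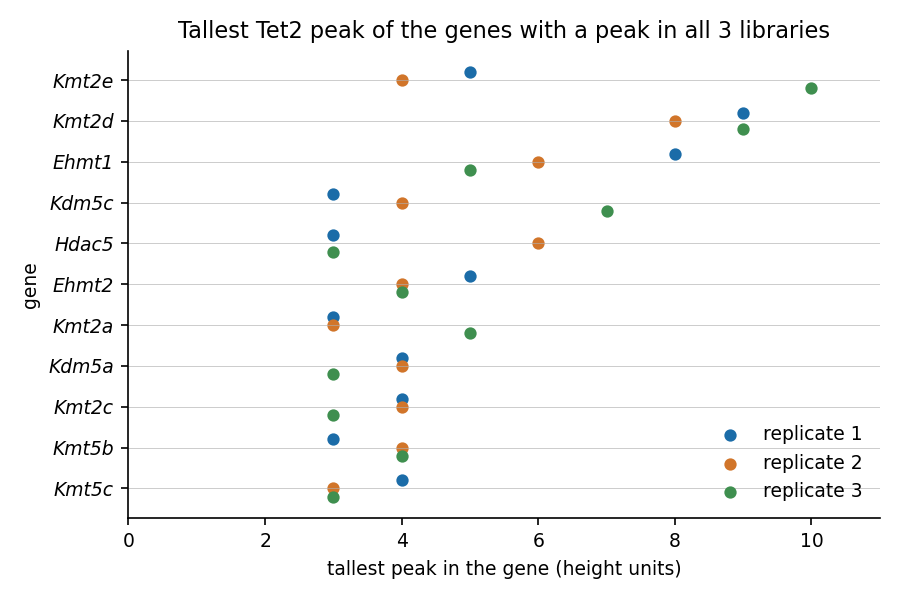
Points give the tallest Tet2 peak (height units, x axis) in each replicate for the 11 enzyme genes with a peak in all 3 libraries. Values run from 3 units, in Kmt5c and others, to 10 units in replicate 3 of Kmt2e.

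At the level of positions, the 102 peaks formed 70 loci, of which 12 were found in all 3 libraries (17.1%, against 10.6% of loci in protein-coding genes), 8 in 2 and 50 in 1. The 12 lay in 8 genes, with 3 in Kmt2d, 2 each in Kmt2c and Ehmt1, and 1 each in Kmt2a, Kmt2e, Ehmt2, Kdm5a and Kdm5c. Neighbouring loci, such as the 2 of Ehmt1, were counted apart, so the number of separate sites may be smaller. Of the 71 peaks at 3 or 4 units, 20 (28.2%) lay at such a locus, where 12.0% of peaks of this height in protein-coding genes did. At 5 units or more it was 16 of 31 (51.6%), against 44.7%. These shares are given without a test. Hdac5, Kmt5b and Kmt5c had peaks in every library and no locus that all of them shared.

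Enzyme genes are longer than most. The median span was 43.6 kb, against 17.1 kb over protein-coding genes, and it was 52.0 kb in the 24 with a peak and 38.5 kb in the 36 without. Among spans of 20 to 60 kb, 11 of 25 enzyme genes held a peak (44.0%), against 16.3% of protein-coding genes of that length. At 60 kb or more it was 11 of 23 (47.8%), against 22.4%, and under 20 kb 2 of 12 (16.7%), against 10.1%. The 2 short ones were Ehmt2 and Kmt5c. The share with a peak in at least 1 library was thus higher in longer spans, in enzyme genes and in protein-coding genes alike. A peak in all 3 libraries was held by 2 of 12, 4 of 25 and 5 of 23 enzyme genes, from short to long. For protein-coding genes these shares were 2.39%, 3.59% and 4.78%. Of the 60, 6 (10.0%, against 1.02% of protein-coding genes) carried at least 6 peaks over the 3 libraries, namely Kmt2d, Ehmt2, Ehmt1, Kmt2b, Kmt2c and Kmt2e, with spans from 15.6 kb to 227 kb. Spans came without exons, so the length of the mature RNA was not analysed here.

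**Figure D5:**
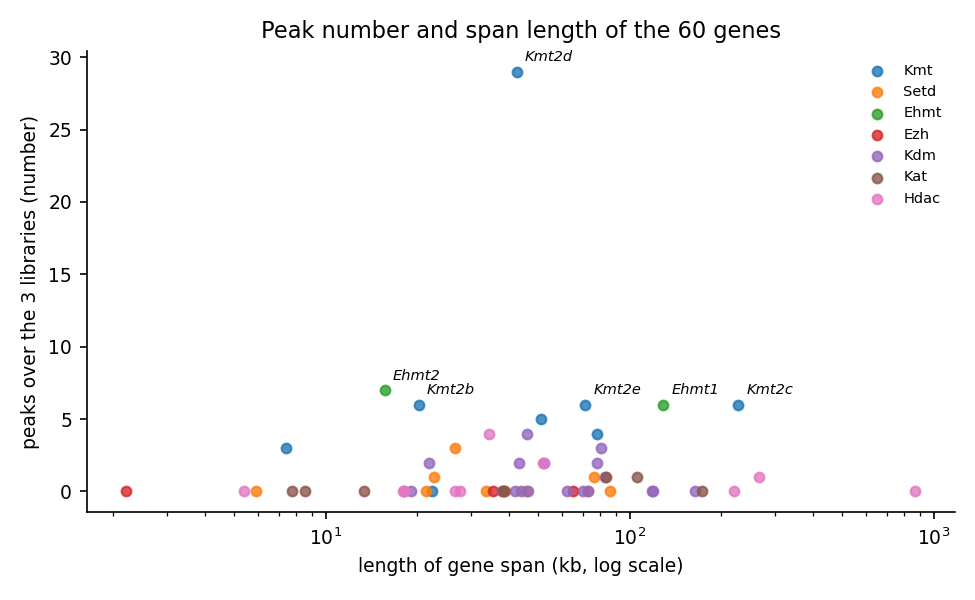
Each point is one of the 60 enzyme genes, placed by the length of its span (kb, log scale) and its number of Tet2 peaks over the 3 libraries, and coloured by family. Kmt2d, at 42.4 kb and 29 peaks, stands above genes of similar or greater length.

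Strand and start were listed for 48 of the 60 enzyme genes and for 16 of the 24 with a peak. Of these 16, 15 had a span of at least 10 kb and were used. Of their 75 peaks, 69.3% lay in the middle 80% of the span, 24% in the first 10% and 6.67% in the last 10%, so the first 10% held more than its share of the length and the other parts less. In protein-coding genes treated the same way the shares were 50.8%, 34.9% and 14.3%. Per library, the middle held 70.7% ± 9.70 of the enzyme gene peaks (SD, n = 3), against 50.8% ± 0.221. Without Kmt2d the 46 remaining peaks had 63.0% in the middle and 32.6% in the first 10%. The first 1000 nt of the span held 12 of the 75 peaks (16.0%), against 27.0% in protein-coding genes, and 26.1% without Kmt2d. These 12 lay in Kdm5c, Ehmt2, Kdm1a, Kmt5b, Setd1a and Setd5. Apart from the minimum of 10 kb, span length was not matched between enzyme genes and protein-coding genes here. Peaks of genes without a listed strand were left out, although the middle can be told from the ends without it. Those of Kmt2e (6), Kdm5a (3), Kdm4b (2), Kdm2a (1) and Kat6a (1) all lay in the outer 10% at an end of the span. So did most Setd1b peaks and 1 Kdm6b peak, while all 6 Kmt2b peaks lay in the middle. With them the middle share of the enzyme genes would be lower.

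Genes for the partners of these enzymes, 91 in 7 lists, were counted the same way. A peak in at least 1 library was held by 35 (38.5%, against 14.1% of protein-coding genes). In all 3 libraries it was 8 (8.79%, against 3.16%). Subunits of deacetylase complexes had 13 of 21 with a peak, among them the CoREST scaffold Rcor1 (3, 3 and 4 units) and Mta2 of the NuRD complex (11, 10 and 5), with most Mta2 peaks in a stretch shared with another span. The deacetylases themselves had peaks in 3 of 11 genes. Subunits of the COMPASS and MLL complexes had 5 of 13, with Hcfc2 at 3, 3 and 7 units in the 3 libraries. Wdr5, Ash2l, Rbbp5 and Dpy30, the core shared by the complexes of Kmt2a, Kmt2b, Kmt2c and Kmt2d, held no peak.

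Subunits of Polycomb repressive complex 2 had 2 of 9 with a peak, both in every library. Phf1 stood at 13, 12 and 8 units and Jarid2 at 131, 126 and 133, while Eed and Suz12, like Ezh1 and Ezh2, held none. Methyltransferases outside the symbol rule had 5 of 16, led by Nsd2 (18, 12 and 12 units), whose peaks share a span with another gene, and Nsd1 (4, 7 and 4). Other acetyltransferases and their subunits had 7 of 16, none in all 3 libraries, and Ep300 and Crebbp held none. Sirtuins had 1 of 7 (Sirt2, 8 units in replicate 2), or 14.3%, near the 14.1% of protein-coding genes. Other JmjC proteins had 2 of 9 (22.2%). The lists were drawn up by role, with earlier results of these data known, and no test of them was made.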

How the data were processed

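The authors deposited a table of normalized peak heights, a signal, with chromosome, start, end and height of each peak per library. Reads were trimmed with cutadapt 1.9 and mapped with STAR 2.4.0i to mm10, per the submitters' processing notes. Peaks were called with a valley-seeking method, per the labels' protocols; its settings, and the treatment of reads that match several places, are not stated in those sources. The heights in each library add up to 1, and each is a whole number of steps (tolerance 0.05 of a step), 1 over 19213, 18270 and 15431 in replicates 1 to 3. Whether a step is 1 read is unknown, so depth is unknown and no interval was computed. Table headings give the replicate number of the labels.

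Starts were read as 0-based and are printed 1-based. Gene spans, strands and start windows came from RefSeq tables of GRCm38.p6, the assembly that mm10 is built on. A peak belonged to each span holding its midpoint, whatever the strand of the gene, and 6 of the 102 peaks lay in over 1 span. Python 3.11.15 with pandas 2.3.3 was used, and assignment and merging were tested on simulated data. Members and lists were chosen with earlier results of these data known. With 1 group and no control, no significance test was made, and the SD is the spread between 3 samples, which may be technical in part. All members are named. Sites were described for those with the most peaks or a peak of at least 10 units, and for others after their values were seen. Listed genes were named when bound in all 3 libraries, at most 4 per list (1 is not reported here), and the remaining names in those lists were chosen after their values were seen.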

Additional observations from a re-analysis of the deposited data

How the results depend on the processing

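Counts depended on the lowest height admitted, because most peaks of these genes stand at 3 or 4 units. With peaks of at least 5 and at least 10 units, the genes with a peak went from 24 to 10 and 1, those with a peak in all 3 libraries from 11 to 2 and 0, the mean number of peaks per library from 34.0 to 10.3 and 0.333, their share of summed height from 0.808% to 0.366% and 0.0216%, the loci shared by all 3 libraries from 12 to 3 and 0, and the mean number of Kmt2d peaks from 9.67 to 4.67 and 0. The share of height was 0.763% with only peaks in 1 gene span, and 0.543% without Kmt2d, a setting chosen after seeing the data. Leaving out each replicate gave 19 to 23 genes with a peak, 12 to 14 with a peak in both remaining libraries, 31.5 to 37.0 peaks per library, 0.787% to 0.829% of the height, 14 to 15 shared loci and 8.0 to 10.5 Kmt2d peaks. Of 49 values under other settings, 35 stayed within 1.5 times the reported count or 1 SD of the reported share, among them those for any overlap with a span, a reciprocal overlap of 50% and midpoints within 200 nt. Some of the 35 could hardly have moved. The number of genes with a peak in every library cannot fall when a replicate is left out. Leaving out Kmt2d takes away a single gene known beforehand. Such values do not test how stable the counts are. No paired analysis was possible because the libraries form 1 group.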
